A study of Mus musculus with 14 samples.

Results

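The genes examined were Cd4, Cd8a, Cd8b1, Zbtb7b and Tox, which encode the CD4 and CD8 coreceptors of T cells and factors that steer thymocytes towards a CD4+ or a CD8+ fate. Each was represented by the array probe sets annotated to that gene alone, 12 for Cd4, 9 for Cd8a, 7 for Cd8b1, 6 for Zbtb7b and 8 for Tox, which made 42 of 179496 probe sets and 5 of 15803 genes. They were followed through 14 mouse thymic lymphomas of the Sleeping Beauty type, 7 of strain Vav-SB and 7 of strain CD4-SB. In such models a transposon is mobilised in body cells and mutates the genes into which it inserts, and all 14 tumours share this and the diagnosis. Vav names a promoter active throughout blood-forming cells and CD4 one active in thymocytes. The labels give the strain without its alleles, the driver of the transposase, or the age of the mice, and leave it unstated whether every tumour is from a mouse of its own. The 7 CD4-SB tumours carry only 4 title numbers between them, while the 7 Vav-SB tumours carry 7. No thymus without a tumour was analysed here.

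CD4 binds MHC class II and CD8, a dimer of the products of Cd8a and Cd8b1, binds MHC class I, and both bring the kinase LCK to the T-cell receptor. Thymocytes first carry neither coreceptor, then both, and then keep the one that fits their receptor. ThPOK, the product of Zbtb7b, holds cells in the CD4+ lineage and represses the CD8 genes, whereas RUNX3 silences Cd4 in CD8+ cells, and TOX is an HMG-box factor needed for the CD4+ lineage to form.

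Gene levels are means of the deposited log2 values of a gene's probe sets, so a difference of 1 is 2-fold, and the median level over all genes was 7.22. Levels were compared between tumours and not between genes, because probe sets respond unequally. Adjusted p-values come from limma across all 15803 genes with Benjamini-Hochberg adjustment, and a call means an adjusted p below 0.05. They rest on the spread between the 7 tumours of each model, taken as independent, although the CD4-SB tumours carry only 4 title numbers. Of the defining T-lineage markers, the CD3 chain genes Cd3d, Cd3e and Cd3g lay between 11.07 and 12.47 in all 14 tumours. The mean of the 7 measured T-lineage markers was 10.89 to 11.45 in Vav-SB tumours and 9.40 to 11.05 in CD4-SB tumours, where Cd28 went as low as 5.68 and Thy1 as low as 8.16. The mean level of 40 markers of other cell types was 7.18 to 7.81 in Vav-SB tumours and 7.47 to 8.48 in CD4-SB tumours.

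Of the 5 genes, Cd8b1, Cd8a and Cd4 were called higher in Vav-SB tumours, and Zbtb7b and Tox were not called in either direction. Over all genes, 7.28% were called higher in Vav-SB tumours and 7.18% higher in CD4-SB tumours. For 2 of the 5, Cd4 and Cd8b1, every Vav-SB tumour lay above every CD4-SB tumour, which held for 2.51% of all genes. The model named for CD4 thus had the lower Cd4 RNA. In bulk tumour RNA, fewer cells that express a gene and less RNA per cell cannot be told apart.

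**Figure D1:**
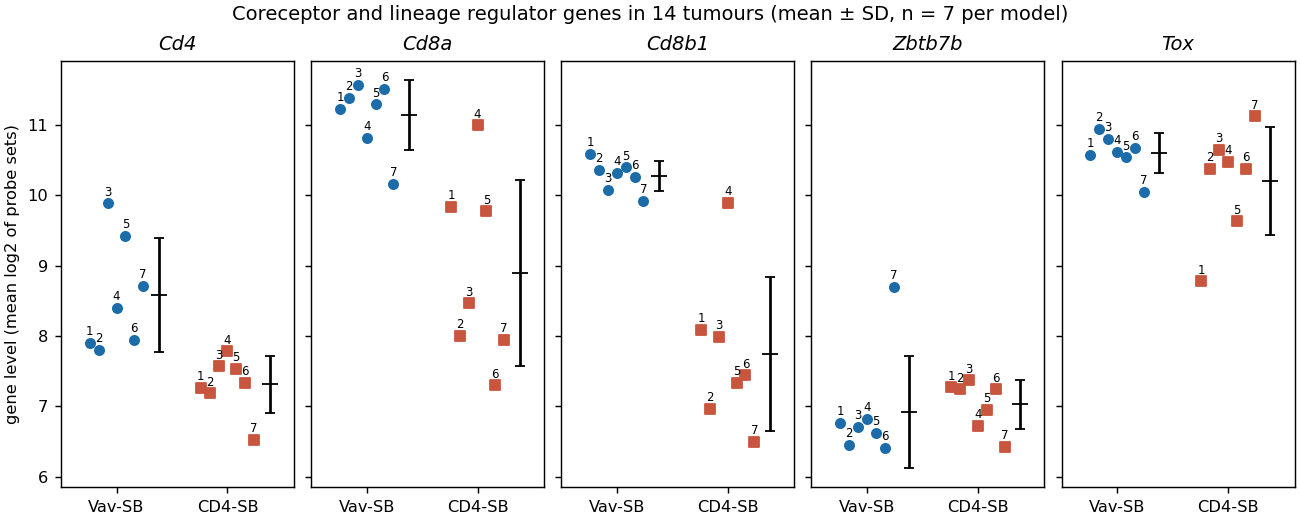
Level of each gene (mean log2 of its probe sets) in 7 Vav-SB tumours (circles) and 7 CD4-SB tumours (squares), numbered by replicate, with mean ± SD beside the points. Cd4 and Cd8b1 do not overlap between the models, CD4-SB replicate 4 reaches into the Vav-SB range of Cd8a, and Vav-SB replicate 7 stands alone for Zbtb7b at 8.69.

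Cd8b1 encodes the beta chain of the CD8 heterodimer, the form on thymocytes and on CD8+ T cells with an alpha-beta receptor. Its level was 9.92 at the lowest, 10.32 at the median and 10.58 at the highest in Vav-SB tumours, against 6.49, 7.44 and 9.89 in CD4-SB tumours. All Vav-SB tumours sat in a narrow band above the CD4-SB tumours, and only CD4-SB replicate 4 came near it. The means were 10.28 ± 0.22 in Vav-SB tumours and 7.74 ± 1.10 in CD4-SB tumours (SD, n = 7 each), a difference of 2.53 (95% interval 1.71 to 3.36) or 5.79-fold (adjusted p = 0.000723). The difference was 3.34 with the median over probe sets (adjusted p = 0.000467) and 3.23 over the 5 probe sets above the median level (adjusted p = 0.000675).

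Cd8a encodes the alpha chain, which also forms a homodimer on some gamma-delta T cells, on intestinal lymphocytes and on a subset of dendritic cells. Its level was 10.16 at the lowest, 11.29 at the median and 11.56 at the highest in Vav-SB tumours, against 7.30, 8.46 and 10.99 in CD4-SB tumours. The ranges overlapped through 1 tumour, since CD4-SB replicate 4 lay above Vav-SB replicates 4 and 7 and the other 6 CD4-SB tumours lay below every Vav-SB tumour. The means were 11.13 ± 0.50 in Vav-SB tumours and 8.90 ± 1.32 in CD4-SB tumours (SD, n = 7 each), a difference of 2.24 (95% interval 1.20 to 3.27) or 4.71-fold (adjusted p = 0.00729). With 1 tumour per title number, which keeps CD4-SB replicates 1, 3, 4 and 5, the difference was 1.37 (adjusted p = 0.043).

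Cd4 was the third gene called. Its level was 7.80 at the lowest, 8.40 at the median and 9.88 at the highest in Vav-SB tumours, against 6.52, 7.33 and 7.78 in CD4-SB tumours. The gap between the models was small, 7.80 in Vav-SB replicate 2 against 7.78 in CD4-SB replicate 4. The means were 8.58 ± 0.81 in Vav-SB tumours and 7.31 ± 0.40 in CD4-SB tumours (SD, n = 7 each), a difference of 1.27 (95% interval 0.60 to 1.93) or 2.41-fold (adjusted p = 0.0144). With 1 tumour per title number the call ended at a difference of 1.04 (adjusted p = 0.089). Some dendritic cells and macrophages of the mouse also express Cd4. The macrophage and monocyte marker list stood at 7.65 to 8.67 in Vav-SB tumours and 8.68 to 9.54 in CD4-SB tumours. Of its 9 genes 5 were called higher in the CD4-SB model, against 7.18% of all genes. The dendritic marker list stood at 7.07 to 7.84 in Vav-SB tumours and 7.29 to 8.78 in CD4-SB tumours. Of its 9 genes 2 were called higher in CD4-SB tumours, against the same 7.18%. The part of these cells in the Cd4 difference was not tested. With the mean of the 40 markers as a covariate, the differences were 1.79 for Cd4, 2.84 for Cd8a and 2.92 for Cd8b1, and all 3 calls held (adjusted p = 0.041, 0.043 and 0.0144).

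The Cd8a and Cd8b1 genes lie close together on chromosome 6, Cd8b1 at chr6:71322788-71337492 and Cd8a at chr6:71373427-71379171 in GRCm38.p6, 35.9 kb apart. Cd4 lies on the same chromosome at chr6:124864693-124888247, Zbtb7b at chr3:89377644-89393673 and Tox at chr4:6686353-6991557. Promoter sequences from RefSeq were matched for Cd8a and Zbtb7b and not for Cd4, Cd8b1 and Tox. The 250 bases before a start site are shown for these, 5′ to 3′ along the gene. They belong to a coreceptor gene that differed and to a regulator that was not called. The Cd8a window is chr6:71373177-71373426 on the plus strand, and the Zbtb7b window, that of the inner of its listed start sites, is chr3:89387672-89387921 on the minus strand. This Zbtb7b window lies within the span of the gene given above. Capitals mark a match to a RUNX core motif.
Cd8a: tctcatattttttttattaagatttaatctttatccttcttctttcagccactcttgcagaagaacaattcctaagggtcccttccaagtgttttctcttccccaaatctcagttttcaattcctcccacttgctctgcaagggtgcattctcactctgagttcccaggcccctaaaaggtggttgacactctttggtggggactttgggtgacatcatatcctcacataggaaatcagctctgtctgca
Zbtb7b: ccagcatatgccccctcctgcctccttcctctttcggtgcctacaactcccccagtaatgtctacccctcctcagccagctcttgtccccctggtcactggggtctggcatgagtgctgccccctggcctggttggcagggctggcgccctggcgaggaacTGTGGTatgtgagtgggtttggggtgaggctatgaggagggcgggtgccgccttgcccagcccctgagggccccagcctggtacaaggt
Letters searched on both strands were the RUNX cores TGTGGT and TGCGGT, the E-box CAGCTG and the GATA motif AGATAA, since genes of these factor families were called between the models. The only match was TGTGGT in this Zbtb7b window, and the outer Zbtb7b window, which is not printed, had none. Of 32851 windows of the same length, 14.0% held TGTGGT, 5.10% TGCGGT, 13.0% CAGCTG and 9.99% AGATAA. A match is a run of letters and says nothing of binding here.

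The probe sets of the called genes moved together with few exceptions. Of the 42 probe sets, 22 were called higher in Vav-SB tumours and 0 lower, against 4.53% of all probe sets higher and 3.99% lower. The count was 7 with a single tumour kept for each title number and 11 with the marker covariate. All 9 of Cd8a were called, with log2 differences between 1.82 and 2.76. Of the 12 of Cd4, 8 were called and all 12 differences were positive, between 0.39 and 2.04. In 1 of the 12 every Vav-SB tumour lay above every CD4-SB tumour, against 1.76% of all probe sets. The smallest difference, 0.39, was that of the brightest Cd4 probe set, which was not called (limma adjusted p = 0.36). It had 10.87 ± 0.53 in Vav-SB tumours and 10.48 ± 0.40 in CD4-SB tumours (SD, n = 7 each). Of the 7 of Cd8b1, 5 were called, with differences between 3.03 and 3.54, and for 4 of them every Vav-SB tumour lay above every CD4-SB tumour, against 1.76% of all probe sets. The other 2 Cd8b1 probe sets were the dimmest of the gene, one at 5.15 ± 0.58 in Vav-SB tumours and 4.37 ± 0.95 in CD4-SB tumours, the other at 7.69 ± 0.60 in Vav-SB tumours and 6.86 ± 0.39 in CD4-SB tumours (SD, n = 7 each). Both stood below the rest of their gene by limma's diffSplice (adjusted p = 0.0283 and 0.0368), a test that called 1.33% of the probe sets tested. A test on each tumour's own difference between a probe set and the rest of its gene called 1.77% of those tested. It set 4 probe sets of Cd8b1 and 1 of Cd4 apart. Of these, only the dimmest Cd8b1 probe set stood below the rest of its gene. The Cd8b1 probe set at 7.69 in Vav-SB tumours was not set apart by this test (adjusted p = 0.0511). The part of low signal in these values was not tested.

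**Figure D2:**
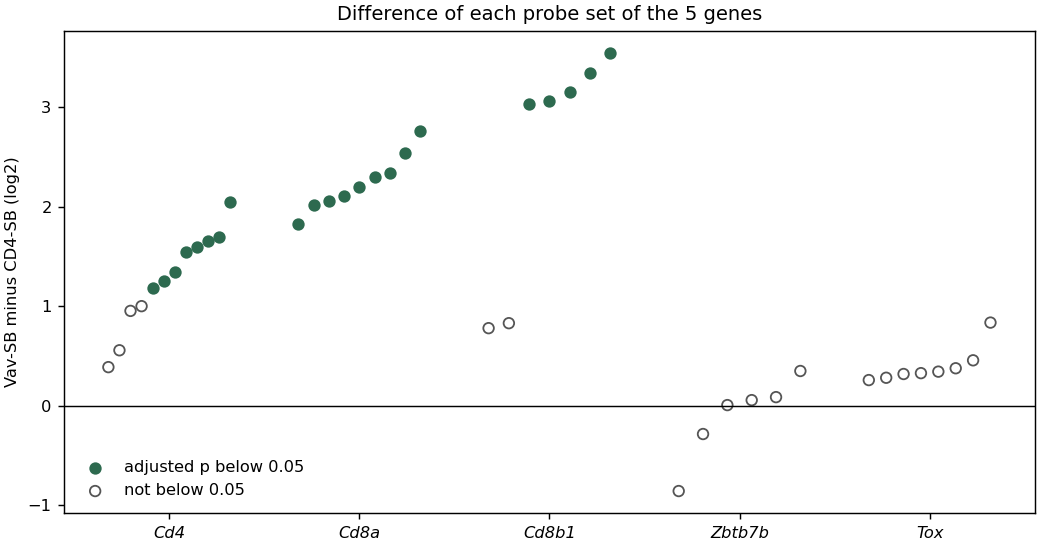
Log2 difference, Vav-SB minus CD4-SB, of each probe set of the 5 genes. Filled points passed an adjusted p of 0.05 over 179496 probe sets, which were 8 of 12 for Cd4, 9 of 9 for Cd8a, 5 of 7 for Cd8b1 and none for Zbtb7b or Tox.

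Zbtb7b was not called, and most tumours had it below or about the median gene level. Its level was 6.41 at the lowest, 6.70 at the median and 8.69 at the highest in Vav-SB tumours, against 6.42, 7.24 and 7.37 in CD4-SB tumours. A single tumour, Vav-SB replicate 7, stood above all others, 4.19-fold over the mean of the other 6 Vav-SB tumours. Of the remaining tumours, CD4-SB replicates 4 and 7 lay within the range of those 6. CD4-SB replicates 1, 2, 3, 5 and 6 lay above it. The means were 6.92 ± 0.80 in Vav-SB tumours and 7.03 ± 0.35 in CD4-SB tumours (SD, n = 7 each), a difference of -0.11 (95% interval -0.75 to 0.53, adjusted p = 0.863). Without Vav-SB replicate 7 the difference was -0.40 (adjusted p = 0.102), and over the 1 probe set above the median level it was -0.86 (adjusted p = 0.163). All 6 probe sets were highest of the 14 tumours in Vav-SB replicate 7. By limma over all probe sets 0 of the 6 were called, and 1 had an unadjusted p below 0.05.

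Tox had high RNA in both models. Its level was 10.05 at the lowest, 10.62 at the median and 10.95 at the highest in Vav-SB tumours, against 8.78, 10.37 and 11.12 in CD4-SB tumours. The Vav-SB tumours lay inside the wider CD4-SB range, with CD4-SB replicates 1 and 5 below every Vav-SB tumour and CD4-SB replicate 7 above them all. The means were 10.60 ± 0.28 in Vav-SB tumours and 10.20 ± 0.77 in CD4-SB tumours (SD, n = 7 each), a difference of 0.40 (95% interval -0.20 to 1.00, adjusted p = 0.40), so that folds from 0.868 to 2.01 lie in the interval. Without CD4-SB replicate 1 the difference was 0.16 (adjusted p = 0.672). CD4-SB replicate 1 was the lowest of the 14 tumours in all 8 probe sets, and CD4-SB replicate 5 was below the lowest Vav-SB tumour in all 8. By limma over all probe sets 0 of the 8 were called, and 1 had an unadjusted p below 0.05.

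**Figure D3:**
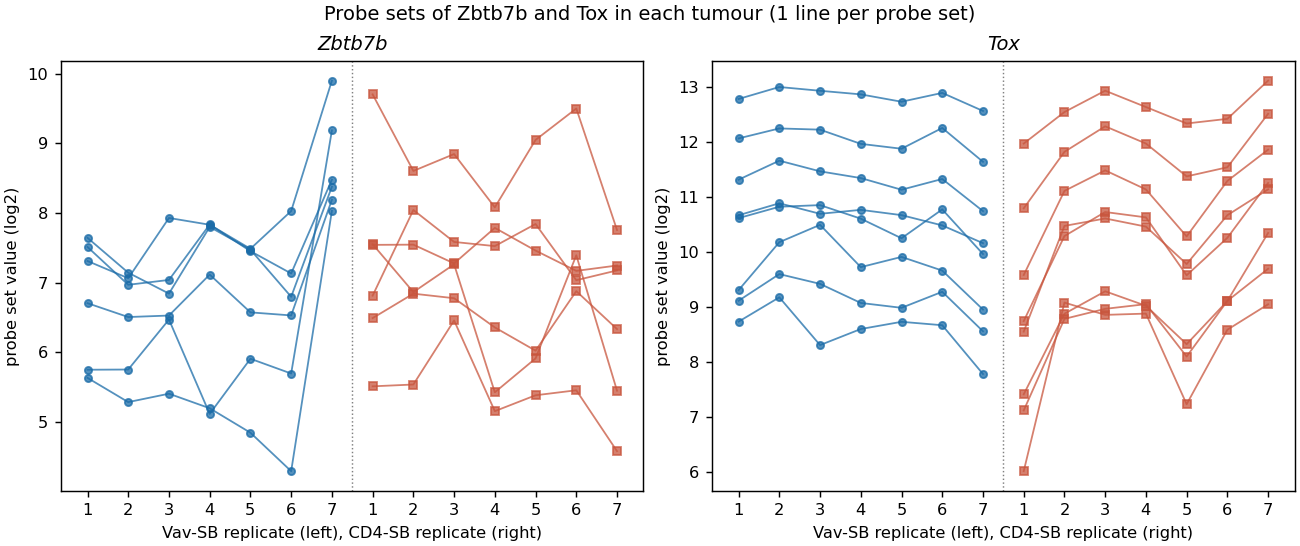
Log2 value of each probe set of Zbtb7b (left) and Tox (right) in the 7 Vav-SB and the 7 CD4-SB tumours. A line joins the values of 1 probe set and the replicates have no order. Vav-SB replicate 7 is highest in all 6 probe sets of Zbtb7b, and CD4-SB replicate 1 is lowest in all 8 of Tox.

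The relatives of these factors that were measured were not called. Tox3 had 5.67 ± 0.12 in Vav-SB tumours and 6.35 ± 1.50 in CD4-SB tumours (adjusted p = 0.439), where CD4-SB replicate 5 reached 9.74 and no other tumour passed 6.05. In that tumour 11 of the 14 Tox3 probe sets were above all other tumours. Zbtb7c, a paralogue of Zbtb7b, had 7.10 ± 0.11 in Vav-SB tumours and 7.88 ± 0.77 in CD4-SB tumours (SD, n = 7 each, adjusted p = 0.068), with 8.81, 8.76 and 8.49 in CD4-SB replicates 1, 5 and 6 and at most 7.43 in every other tumour. Zbtb7a, which encodes LRF and can act beside ThPOK in CD4+ T cells, had 7.52 ± 0.20 in Vav-SB tumours and 7.66 ± 0.20 in CD4-SB tumours (adjusted p = 0.47).

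Read tumour by tumour, the Vav-SB tumours all had high Cd8a and Cd8b1 RNA and varied more in Cd4. Vav-SB replicates 3 and 5 had the highest Cd4, 9.88 and 9.42, and replicate 3 was highest of all 14 tumours in 12 of 12 Cd4 probe sets. Vav-SB replicates 1, 2 and 6 had Cd4 at 7.90, 7.80 and 7.94 beside Cd8a at 11.22, 11.38 and 11.51. These 3 were high in Cd8a and lowest of the Vav-SB tumours in Cd4. Vav-SB replicate 4 had 8.40 for Cd4 and 10.81 for Cd8a. Vav-SB replicate 7 combined the highest Zbtb7b with the lowest Vav-SB values of Cd8a, 10.16, Cd8b1, 9.92, and Tox, 10.05, at a Cd4 level of 8.71. It was the lowest Vav-SB tumour in 9 of 9 Cd8a, 6 of 7 Cd8b1 and 8 of 8 Tox probe sets.

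At gene level the CD4-SB tumours all lay below the Vav-SB tumours in Cd4 and were unequal in CD8. CD4-SB replicate 4 was closest to the Vav-SB tumours, 1.10-fold below their mean for Cd8a, 1.30-fold for Cd8b1 and 1.74-fold for Cd4, and reached the lowest Vav-SB tumour in 9 of 9 Cd8a, 3 of 7 Cd8b1 and 9 of 12 Cd4 probe sets. CD4-SB replicates 1 and 5 were 2.47-fold and 2.58-fold below the Vav-SB mean for Cd8a but 4.56-fold and 7.68-fold below it for Cd8b1. At these gene levels both tumours stood nearer to Vav-SB tumours in Cd8a than in Cd8b1. Their Cd8a minus Cd8b1 values, 1.74 and 2.44, were the highest of the 14. CD4-SB replicate 6 was the reverse, 14.3-fold below for Cd8a and 7.14-fold for Cd8b1, with the lowest Cd8a minus Cd8b1 value, -0.14. CD4-SB replicates 2, 3 and 7 were 8.79-fold, 6.38-fold and 9.16-fold below the Vav-SB mean for Cd8a. For Cd8b1 the same 3 tumours were 9.95-fold, 4.90-fold and 13.8-fold below it. The Cd8b1 levels average in the 2 dimmest probe sets of the gene, so these folds and the order in Cd8a minus Cd8b1 depend on them. In the brightest Cd8b1 probe set CD4-SB replicates 2 and 7 were lowest, at 9.07 and 8.33. Replicates 1 and 5 had 10.58 and 9.26 there, and the Vav-SB mean was 13.17. CD4-SB replicate 7 also had the lowest Cd4 of the 14, 6.52, and the highest Tox, 11.12.

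**Figure D4:**
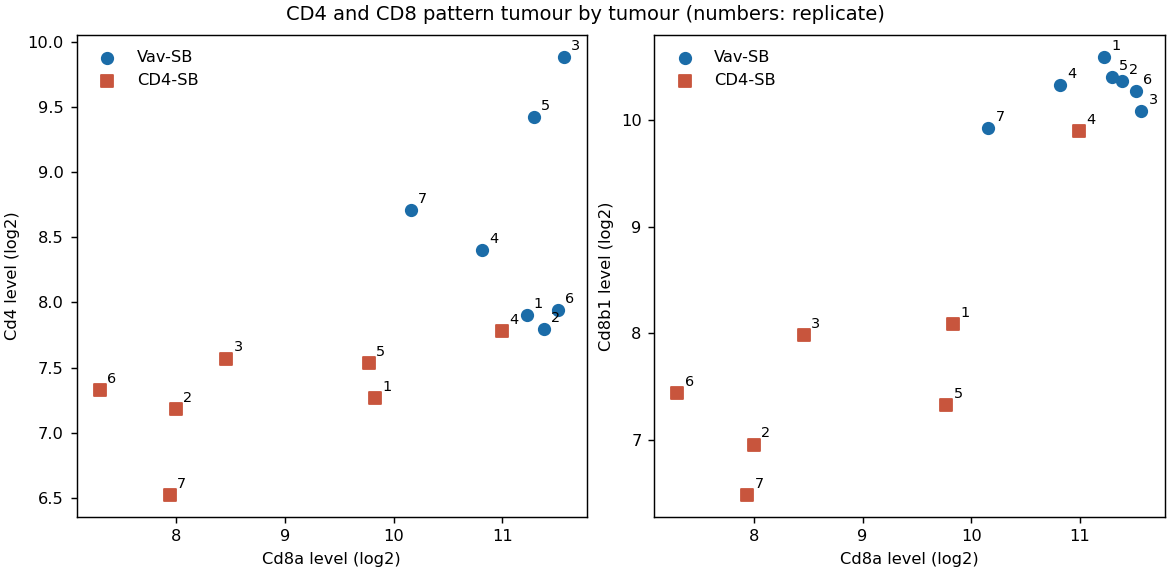
Cd4 level (left) and Cd8b1 level (right) against Cd8a level (log2) in each of the 14 tumours, Vav-SB as circles and CD4-SB as squares, numbered by replicate. CD4-SB replicate 4 lies next to the Vav-SB tumours in both panels, and CD4-SB replicates 1 and 5 lie to the right of the other CD4-SB tumours in Cd8a without being as high in Cd8b1 as CD4-SB replicate 4.

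Markers of other cells also varied between the CD4-SB tumours. The dendritic marker list stood at 8.42 and 8.56 in CD4-SB replicates 1 and 5, at 8.37 in replicate 4, at 8.74 in replicate 6, at 8.78 in replicate 3 and at 7.31 and 7.29 in replicates 2 and 7. The dendritic marker Itgax was 9.63 and 8.53 in CD4-SB replicates 1 and 5, 8.85 in replicate 6 and between 6.46 and 8.03 in replicates 2, 3, 4 and 7. Xcr1, a marker of the dendritic subset that carries CD8 alpha, was 7.67 and 8.24 in CD4-SB replicates 1 and 5, 8.96, 8.45 and 8.99 in replicates 3, 4 and 6, and 7.38 and 7.18 in replicates 2 and 7. Il23r, a receptor gene used by gamma-delta T cells, was at 10.60, 10.60, 11.50 and 11.06 in CD4-SB replicates 1, 2, 5 and 6 and at 6.57, 5.69 and 5.40 in replicates 3, 4 and 7. Of 5 measured genes of a gamma-delta list, 3 were not called. Sox13 was called higher in Vav-SB tumours and Il23r in CD4-SB tumours (adjusted p = 0.00269 and 0.0474), against 7.28% and 7.18% of all genes. Both were named after their values were seen. The Il23r call ended in 11 of the 14 fits that leave out 1 tumour, with a single tumour for each title number (adjusted p = 0.0717), with the marker covariate (adjusted p = 0.396), with the median over probe sets (adjusted p = 0.0644) and with a covariate for 2 Y-linked genes (adjusted p = 0.103). That of Sox13 ended with the marker covariate (adjusted p = 0.134) and with the median over probe sets (adjusted p = 0.137). The part of either cell type in the CD8 values was not tested.

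The spread within a model differed by gene. In Vav-SB tumours the SD of Cd4, 0.81, exceeded that of 98.2% of all genes and the SD of Zbtb7b, 0.80, that of 98.1%, while for Cd8b1 the figure was 58.7%. In CD4-SB tumours the SD of Cd8a exceeded that of 98.9% of genes, Cd8b1 97.6% and Tox 93.7%, against 74.8% for Cd4 and 67.2% for Zbtb7b. The differences in spread between models were not tested.

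Within a model the 5 genes gave 20 pairwise correlations over 7 tumours each, and none passed the adjustment over the 20. For Cd8a and Zbtb7b in Vav-SB tumours Pearson's r was -0.91 (exact permutation p = 0.0085, two-sided, adjusted p = 0.161) and Spearman's rho -0.79 (exact permutation p = 0.048, adjusted p = 0.44). Without the 2 tumours farthest from the median of Cd8a r was -0.37, so the relation rests on those tumours. For Cd8a and Cd8b1 in CD4-SB tumours r was 0.77 (exact permutation p = 0.032, adjusted p = 0.161) and rho 0.71 (exact permutation p = 0.088, adjusted p = 0.44), and r was 0.20 without the 2 farthest tumours.

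The genes whose deviations from the model means were most like those of each member over the 14 tumours followed single tumours in part. Usp2 was nearest to Cd4 (r = 0.93), followed by Id1 and Il5ra (0.84 each). Usp2, Id1 and Il5ra were each highest in Vav-SB replicate 3, at 7.67, 6.74 and 6.14. Nr4a3 (0.83), Zfp273 (0.80) and Trpc6 (0.80) were nearest to Cd8a, for which Cd8b1 ranked 21st at 0.74. Letm2 (0.93), Zfp273 (0.91) and 9330175E14Rik (0.89) were nearest to Cd8b1, and CD4-SB replicate 4 had 10.31 for Letm2 and 10.20 for 9330175E14Rik, where no other tumour passed 7.89 in either. Fgd2 (0.91), Pla2g4c (0.90) and Sox8 (0.86) were nearest to Zbtb7b and peaked in the same tumour, at 9.53, 10.70 and 8.95 in Vav-SB replicate 7. Inpp5e (0.95), Slc20a2 (0.89) and Mrps5 (0.89) were nearest to Tox. These are descriptions over 14 values that share the arrays.

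Of 23 other regulators of the CD4/CD8 choice and of thymocyte development, 20 were measured, and 10 of them were called higher in Vav-SB tumours and 1 higher in CD4-SB tumours. The same calls took in 7.28% and 7.18% of all genes, and the median difference was 0.58 over the list and 0.0043 over all genes. For 7 of the 20, every Vav-SB tumour was above every CD4-SB tumour, against 2.51% of all genes. These were Tcf12, Patz1, Bcl11b, Lef1, Satb1, Gata3 and Myb. Tcf12, which encodes the E protein HEB, had 11.12 ± 0.21 in Vav-SB tumours and 9.51 ± 0.21 in CD4-SB tumours (SD, n = 7 each, 3.05-fold, adjusted p = 6.57e-07). Patz1, which encodes MAZR, a repressor of Cd8 in early thymocytes and of Zbtb7b, had 9.27 ± 0.23 in Vav-SB tumours and 8.02 ± 0.30 in CD4-SB tumours (2.38-fold, adjusted p = 5.92e-05). Bcl11b, a T-lineage commitment factor, differed by 0.69 (adjusted p = 4.50e-05), and Lef1, an HMG-box factor of the TCF family, by 2.35 (adjusted p = 0.000591). Satb1, Runx3 and Gata3 are named here after their values were seen. Satb1, a chromatin organiser that acts on the enhancers of lineage genes, had 11.54 ± 0.27 in Vav-SB tumours and 8.52 ± 1.52 in CD4-SB tumours (8.15-fold, adjusted p = 0.00191). Gata3, which acts upstream of Zbtb7b, had 9.75 ± 0.39 in Vav-SB tumours and 8.96 ± 0.30 in CD4-SB tumours (1.73-fold, adjusted p = 0.00843). Runx3, the silencer of Cd4, was the gene called in the other direction, 7.92 ± 0.21 in Vav-SB tumours and 8.58 ± 0.33 in CD4-SB tumours (1.58-fold higher in CD4-SB tumours, adjusted p = 0.00725). Myb, Runx1, Tcf7 and Ikzf1 completed the 10, of which the calls of Runx1 and Tcf7 ended in 8 and 3 of the 14 fits that leave out 1 tumour. With the 40 markers as a covariate 5 of the 11 calls remained, and those of Lef1 (difference 1.59, adjusted p = 0.071), Gata3 (0.78, adjusted p = 0.123) and Runx3 (-0.62, adjusted p = 0.128) ended.

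**Figure D5:**
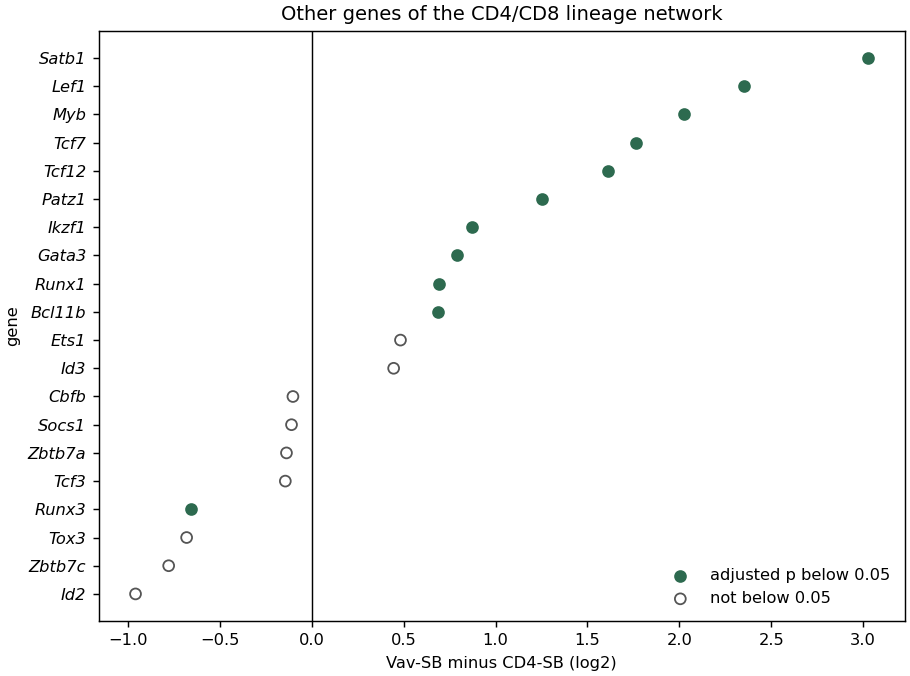
Log2 difference, Vav-SB minus CD4-SB, of 20 further regulators of the CD4/CD8 lineage network. Filled points passed an adjusted p of 0.05 over all genes, 10 to the right of 0 and Runx3 to the left.

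Of 12 measured chromatin factors reported to act on Cd4 or Cd8, such as the remodeller subunits Smarca4 and Smarce1, limma called 0, and 2 had an unadjusted p below 0.05. Over all genes limma called 14.5% in either direction, so the 0 of 12 is not read as a result about these factors. Of 11 kinases and partners of the coreceptors, 3 were called higher in Vav-SB tumours and 2 higher in CD4-SB tumours. The shares over all genes were 7.28% and 7.18%. Themis, an adaptor of thymocyte selection, had 11.12 ± 0.31 in Vav-SB tumours and 8.10 ± 1.11 in CD4-SB tumours (8.13-fold, adjusted p = 0.000223), and the phosphatase gene Ptprc, encoding CD45, had 11.69 ± 0.29 in Vav-SB tumours and 10.74 ± 0.43 in CD4-SB tumours (1.93-fold, adjusted p = 0.00394). Lat was the other one called higher. Ptpn22, a phosphatase that opposes LCK, was 1.71-fold higher in CD4-SB tumours (9.68 ± 0.21 in Vav-SB tumours and 10.45 ± 0.34 in CD4-SB tumours, adjusted p = 0.00301) and Unc119 1.53-fold higher in CD4-SB tumours (adjusted p = 0.0109).

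Some ligand genes of the coreceptors were called, in both directions. Of 5 class I genes, 1 was called higher in Vav-SB tumours and 2 higher in CD4-SB tumours, against 7.28% and 7.18% of all genes. B2m and Tap1 were not called (limma adjusted p = 0.345 and 0.241). H2-T3, which encodes the thymus leukaemia antigen bound by the CD8 alpha homodimer, had 9.40 ± 0.79 in Vav-SB tumours and 6.20 ± 0.31 in CD4-SB tumours (9.16-fold, adjusted p = 9.90e-06). H2-D1, with 2 probe sets, and H2-K1 were 3.68-fold and 3.58-fold higher in CD4-SB tumours (adjusted p = 0.00248 and 0.00391), and both calls ended with the marker covariate (adjusted p = 0.215 and 0.303). Of 5 class II genes, against the same 7.18% of all genes, only H2-Aa was called, higher in CD4-SB tumours by 1.34 on the log2 scale (adjusted p = 0.0467). It is itself a dendritic marker, and with the marker covariate its difference was 0.28 (adjusted p = 0.613). Of the 14 fits that leave out 1 tumour, 11 ended the call.

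Genes of the stage with both coreceptors were called higher in Vav-SB tumours in 9 of 9 measured cases, against 7.28% of all genes, with a median difference of 3.02. Like the other lists, this one was chosen with earlier results of these data known, so the share is a description and not a test. Of these 9 calls 8 held with a single tumour kept for each title number, where Ccr9 ended (adjusted p = 0.0515), and 7 held with the marker covariate, where Ccr9 and Cd1d1 ended (adjusted p = 0.362 and 0.0545). Those with the smallest adjusted p were Arpp21, Dntt, Tcf12 and Rag1, and Tcf12 and Themis are also counted above. Among genes of mature lineages the called shares can be read against 14.5% of all genes called in either direction. Of 9 helper genes 1 was called, Cxcr5, 1.72-fold higher in CD4-SB tumours at a level of 4.80 in Vav-SB tumours and 5.58 in CD4-SB tumours (adjusted p = 0.0316), a call that 6 of the 14 fits without 1 tumour ended. Of 12 cytotoxic genes 2 were called, both higher in CD4-SB tumours. Crtam, an adhesion receptor of activated cytotoxic cells, had 5.90 ± 0.27 in Vav-SB tumours and 8.81 ± 0.47 in CD4-SB tumours (7.53-fold higher in CD4-SB tumours, adjusted p = 3.31e-07). Itgae, the CD103 chain carried by CD8+ and other epithelium-bound lymphocytes and by some dendritic cells, was 2.71-fold higher in CD4-SB tumours (adjusted p = 0.0274), and the call ended in 5 of the 14 fits that leave out 1 tumour. Of 7 maturation genes 2 were called higher in CD4-SB tumours, H2-K1 and Cd44 (adjusted p = 0.00391 and 0.0238), and 1 such fit ended that of Cd44. Over the 9 lists 31 genes were called, each counted once. Keeping a single tumour for each title number ended 5 of these calls, those of Ccr9, Cxcr5 (adjusted p = 0.057), Itgae (adjusted p = 0.088), Runx1 (adjusted p = 0.105) and Unc119 (adjusted p = 0.058). The marker covariate ended 15, which besides those given above were Runx1, Tcf7, Ikzf1, Lat, Cxcr5, Itgae and Cd44. The median over probe sets ended 5, Cd1d1, Ikzf1, Lat, Runx1 and Tcf7, and the Y-linked covariate ended 6, Cd44, Cxcr5, H2-Aa, Itgae, Runx1 and Tcf7.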

How the data were processed

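RNA of 14 thymic lymphomas was measured on mouse exon arrays, 7 Vav-SB and 7 CD4-SB by the strain label, with replicates numbered in accession order. Per the submitters' processing notes, RMA and Partek were used. For their versions and the background step, the sources used here give nothing. The deposited values are read as log2 from their range, 2.03 to 14.03, since no source gives the log base. Per the labels' protocols the RNA was amplified from a small input, which adds spread between arrays. Column medians of 7.46 to 7.50 show that arrays were scaled to each other, so total RNA cannot be compared.

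Of 194293 probe sets, the 179496 with a single gene symbol were averaged into 15803 genes, with symbols updated through a GRCm38.p6 gene table. Genes were tested with limma 3.58.1 (lmFit, eBayes) in R 4.3.3, all 14 tumours, no covariate, Benjamini-Hochberg over all genes, threshold 0.05; probe sets likewise, and against the rest of their gene with diffSplice. Correlations used exact permutation tests in scipy 1.17.1. Intervals are at the 95% level, and the number of arrays limits precision.

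The 5 genes, the gene lists and the naming rule were chosen with earlier results of these data known. The rule names the 5 genes, up to 4 called members per list with the smallest adjusted p, measured Tox and Zbtb7 relatives, the 3 genes most like each of the 5, and marker genes.

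On simulated data 50 of 15803 genes were changed by each of 4 sizes on the log2 scale. The gene test recovered 52% of changes of 0.5, 82% of changes of 1 and 100% of changes of 2 and 4. It made 10 false calls. The simulated tumours were independent, with 1 spread per gene for both models. Real spreads could differ between models, as for Cd8b1 (SD 0.22 in Vav-SB and 1.10 in CD4-SB tumours), so these figures need not hold here. In its own simulation over 177027 probe sets diffSplice made 396 false calls, against 5 for the test on each tumour's difference, which was added after seeing the data.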

Additional observations from a re-analysis of the deposited data

Results flagged for a closer look

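Each of 60 groups of 7 values was examined for a tumour far from the other 6 of its model with Dixon's ratio, and 5 were found. Chance gives about 1 in 20 groups. The groups cover 30 of the genes and coreceptor differences named in the text. Other named genes, among them Fgd2, Sox8, Pla2g4c, Letm2, 9330175E14Rik and Il23r, were not examined, so the 5 are no count over all named genes.

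Zbtb7b was 8.69 in Vav-SB replicate 7, with the other Vav-SB tumours between 6.41 and 6.82. Tox3 was 9.74 in CD4-SB replicate 5, 15.4-fold over the mean of the other CD4-SB tumours, which lay between 5.61 and 6.05. Rag1, a subunit of the recombinase that assembles antigen receptor genes, was 8.005 in CD4-SB replicate 6, with the other CD4-SB tumours between 5.52 and 5.91. Arpp21 was 10.07 in Vav-SB replicate 6, 1.75-fold below the mean of the other Vav-SB tumours, which lay between 10.71 and 11.02. Ptpn22 was 10.11 in Vav-SB replicate 5, with the other Vav-SB tumours between 9.49 and 9.70.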

How the results depend on the processing

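The calls of Cd8a and Cd8b1 held in all 26 alternatives run, with adjusted p of at most 0.043 and 0.0144, and that of Cd4 in 25 of 26. With 1 tumour per title number the Cd4 difference was 1.04 (adjusted p = 0.089) and 7 probe sets of the 5 genes passed in place of 22. This fit has fewer tumours. With the markers of other cell types as a covariate the difference of Zbtb7b was 0.027 and that of Tox -0.066, both turned in sign and not called in any fit. Under it 619 genes passed in place of 2284 (394 higher in Vav-SB tumours and 225 higher in CD4-SB tumours, against 1150 and 1134), 5 of the lineage regulators in place of 11, and 11 probe sets of the 5 genes. The cause was not tested. With the median over probe sets Zbtb7b was 0.11, and over its 1 probe set above the median level -0.86 (adjusted p = 0.163), against -0.11. For Cd8b1 these settings gave 3.34 and 3.23 against 2.53. Against the rest of their gene, 5 probe sets passed with the test on each tumour's difference and 2 with diffSplice. Leaving out each tumour gave differences of 1.05 to 1.40 for Cd4, 1.97 to 2.58 for Cd8a, 2.33 to 2.89 for Cd8b1, -0.40 to -0.02 for Zbtb7b and 0.16 to 0.55 for Tox, with 1628 to 2518 genes and 9 to 13 lineage regulators past the threshold. Restricting the test to genes above the median level leaves out Zbtb7b. No paired analysis was possible because the labels give no replicate numbers that the models share. Low signal limits Zbtb7b.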
